A study of Mus musculus with 15 samples.

Results

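Endovascular progenitors (EVP) and definitive differentiated (D) cells stand at the opposite ends of the vascular populations that the study sorted out of tumors formed by B16-F0, a mouse melanoma line. Their transcriptomes were compared over all genes in 10 of the 15 libraries of the series, 5 of EVP and 5 of D. The other 5 libraries, of transit amplifying (TA) cells, entered the fit only for its estimate of the spread. The deposited table held 53465 genes, of which 25549 averaged 5 or more normalized counts across the 15 libraries and were tested. Tumors grew in CAG-GFP mice, in which a ubiquitous promoter drives the green fluorescent protein, and were collected on day 15. Both populations were GFP positive, lineage (Lin) negative and CD34+, and EVP had low and D high levels of CD31 and VEGFR2. GFP therefore marks a cell of the host, whatever its type. In other mice, with a label driven by the VE-cadherin gene, the study found most Lin negative CD34+ tumor cells labeled. It reads this as their endothelial origin. That label was not part of the sort sequenced here. The labels number 5 replicates per population without saying whether these came from separate animals or from pools of them. The p-values then measure only the spread between these samples, which may be technical.

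Mature endothelial cells line blood vessels from the inside. They are joined by VE-cadherin junctions, sense flow and growth factors through surface receptors, take up lipids from the blood and rest on a basement membrane of type IV collagen and laminins. The outer layer of larger vessels and the stroma around smaller ones hold mesenchymal cells that secrete fibrillar collagens, proteoglycans and growth factor antagonists, and progenitors with a vascular potential have been described in such niches.

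Between 5394356 and 22963978 reads per EVP library and between 12456809 and 26513073 per D library were counted on genes, with medians of 20024738 and 19952975. A limit of detection of 3 reads equalled 1.81 to 10.5 normalized counts, and without molecular identifiers such limits describe counting error alone. The libraries numbered 1 stood apart in both populations. Gm10800, a predicted gene, held 10.6% of reads in EVP 1 and 8.5% in D 1, and olfactory receptor genes, which neither cell type is known to use, had a read for 98.3% and 89.2% of their number against 61.8% in EVP 2, 24.1% in D 2, 23.2% in D 3, 14.5% in EVP 3 and 2.89 to 5.06% in the libraries numbered 4 and 5. The count of called genes is therefore also given without replicate 1 of each population, and so are the counts of several lists.

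EVP and D differed in 4859 of the 25549 tested genes (19.0%) at an adjusted p under 0.05 in limma. EVP had the higher level for 2952 (11.6% of tested genes) and D for 1907 (7.46%). The 5 libraries of one population lay entirely above those of the other for 4521 genes (17.7%), and 3888 genes met both criteria. Without replicate 1 of each population, 2960 genes (11.6%) were higher in EVP and 1845 (7.22%) in D. Of the genes called with all libraries, 4205 (86.5%) were called again in the same direction and 0 in the opposite direction. The 654 calls that were lost had a median of 348 normalized counts and 89.1% were protein coding. The 600 calls that were gained had a median of 28.3 and 65% were protein coding. The median log2 difference, EVP minus D, was 0.46 over all tested genes and 0.22 without replicate 1, so small positive differences lie near the center of all genes. Leaving out EVP 1 alone moved this median to 0.0012, and leaving out D 1 alone moved it to 0.68. After quantile normalization, which moved this median to -0.05, 49.2% of the called genes were higher in EVP against 60.8% with the deposited normalization.

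The genes behind the sort and the markers of other cell types were examined first. Pecam1 (CD31) had 119 to 613 normalized counts in EVP and 19114 to 32189 in D, and Kdr (VEGFR2) had 94.1 to 712 and 15216 to 26252. Both proteins set the gates, so these values only check the labels. Cd34, common to both gates, had 9968 to 30302 in EVP and 22198 to 32082 in D and was not called (log2 difference -0.68 ± 0.35 SE, adjusted p = 0.22). Cdh5, which encodes VE-cadherin, held 49.2, 18.3, 22.1, 89.5 and 183 normalized counts in EVP 1 to 5 and 9246, 10010.2, 7196, 13383 and 9254 in D 1 to 5. The populations did not overlap, and Cdh5 was 136-fold higher in D (log2 difference -7.54 ± 0.79, adjusted p = 1.6e-06). Kit, a receptor of blood progenitors and mast cells, was also higher in D, with 2105 to 3580.0 against 116 to 621 (adjusted p = 2.8e-05). By flow cytometry in other mice, the study reports its Lin negative CD34+ tumor populations as lacking the c-kit protein. The counts given here are of RNA. Ly6a, which encodes the progenitor antigen Sca-1, was 4.48-fold higher in EVP, with 14403 to 27271 against 2765 to 7588 (adjusted p = 3.8e-05).

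The summed level of 12 pan-endothelial markers was 2588 to 5521 normalized counts in EVP and 95346 to 152093 in D, and 11 of the 12 were called higher in D. Tek, the angiopoietin receptor, had 585 to 2335 against 1689 to 3373 in D and was the exception (log2 difference -0.72 ± 0.43, adjusted p = 0.32). The sum of 10 fibroblast markers was 456403 to 731073 in EVP and 589 to 2499 in D, all 10 called higher in EVP, and the defining endothelial markers were at low levels in EVP rather than absent. In bulk libraries, fewer cells of a type and less RNA per cell cannot be told apart. The 7 melanoma markers were present in both, summing to 29776 to 67410.0 in EVP and 18213 to 47919.9 in D. Their median log2 difference was 0.71, and 1 was called higher in EVP. Within each replicate number the EVP sum was above the D sum, by least in number 3 (49299 against 47920). The labels do not say that equal numbers belong together. Dct was at 11465 to 23983 in EVP and 5775 to 18493 in D (adjusted p = 0.16). The mural list ranged from 5280.4 to 29179 in EVP and 5074 to 10814 in D, and the pan-leukocyte list from 912 to 6848 and 1075 to 2186, where Ptprc, encoding CD45, was not called (adjusted p = 0.16). The 6 mast cell markers summed to 226 to 15086 in EVP, where Cpa3 varied from 1.38 to 5807, and to 2105 to 3580.0 in D, where the summed range was that of Kit. Of these, 4 were called higher in EVP and 1 in D, and without replicate 1 of each population 1 was higher in EVP. The 7 keratinocyte markers summed to 1673 to 8976 in EVP and 84.1 to 2856 in D, with 5 called higher in EVP. The macrophage list overlapped, at 1873 to 11395 and 3653 to 12343, and so did the erythroid list, at 13.8 to 8904 and 45.9 to 6189. The 6 lymphatic markers were divided, with Pdpn, also expressed by fibroblasts, at 8163 to 18726 in EVP and 59.4 to 252 in D and Flt4 at 13.1 to 95.4 and 2543 to 4729. The Schwann cell sums were higher in every EVP library (727 to 7100.4) than in any D library (219 to 398), and 3 of 5 tested markers were called higher in EVP. The highest sum was that of EVP 4, where Ngfr had 6359 against at most 345 in the other EVP libraries. Lymphocyte, skeletal muscle and adipocyte lists stayed at or below 565 normalized counts in every library. The part of these cells in the differences described here was not tested.

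**Figure D1:**
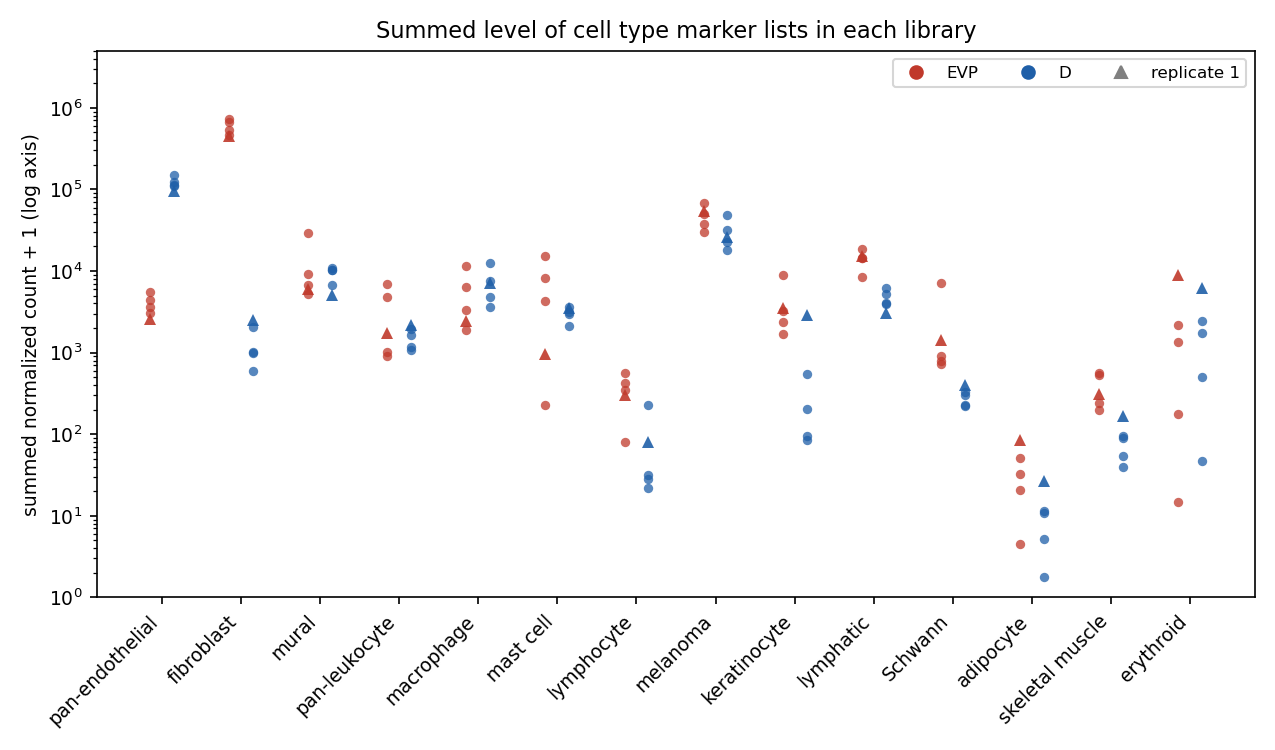
Summed normalized counts of the marker lists plus 1 (log axis) in each of the 5 EVP and 5 D libraries, with each point a library and replicate 1 as a triangle. Pan-endothelial sums are 2588 to 5521 in EVP and 95346 to 152093 in D, fibroblast sums go the other way, and the melanoma, mural, leukocyte and macrophage sums overlap between the populations.

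The leading genes were the protein coding genes with the largest differences among those that were called, did not overlap, averaged 500 or more normalized counts over the EVP and D libraries and are not named by the study. Sfrp4, a secreted antagonist of Wnt ligands, held 12787, 17751, 5626, 26742 and 8569.9 normalized counts in EVP 1 to 5 and 26.1, 0, 0, 0 and 1.81 in D 1 to 5 (log2 difference 12.35 ± 0.75, adjusted p = 3.1e-09). Pi16, a peptidase inhibitor known from fibroblasts of the vessel adventitia, held 37074, 48685, 32248, 55927 and 14801 in EVP and 43.9, 3.27, 0, 15.8 and 18.1 in D (11.89 ± 0.74). Ogn, the small proteoglycan osteoglycin, had 7482 to 20225 in EVP and at most 10.3 in D. Each of these genes was far higher in every EVP library than in any D library, and of the D values given for them the highest was 43.9, that of Pi16 in D 1. Sfrp2, Mfap5, Scara5 (a ferritin receptor), Dpep1 (a dipeptidase), Cilp, the B cell chemokine Cxcl13, the sulfatase Arsi, the collagen crosslinking enzyme Lox and the plasminogen activator inhibitor Serpinb2 completed the 12 leading genes of EVP. Their log2 differences lay between 10.62 and 11.37.

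Aplnr, the receptor of the vascular peptide apelin, led the genes of D. It held 10.5, 0, 10.6, 49.6 and 168 normalized counts in EVP 1 to 5 and 7953, 9102, 7055, 9523 and 11719.6 in D 1 to 5, 190.0-fold higher in D (log2 difference -9.10 ± 1.11, adjusted p = 8.7e-06). Robo4, an endothelial Robo family receptor, held 14, 1.31, 13.9, 109 and 222 in EVP and 7377, 8538, 8633, 11656 and 8440.4 in D (-8.39 ± 1.03). In EVP the values of both genes were highest in replicates 4 and 5, and yet no EVP library came close to a D library. Pdgfb, which recruits pericytes, had 2407 to 3560.5 in D and 1.64 to 53.2 in EVP, and Gpihbp1, which carries lipoprotein lipase across the endothelium, had 23857 to 41353 and 38.6 to 577. The sialomucin Podxl, 8430408G22Rik, Fam167b, Lrrc3b, the adiponectin paralog C1qtnf9, the potassium channel subunit Kcne3, Ushbp1 and the retinol binding protein Rbp7 completed the 12 of D, with log2 differences between -8.25 and -7.47. All 24 genes remained called without replicate 1 of each population.

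**Figure D2:**
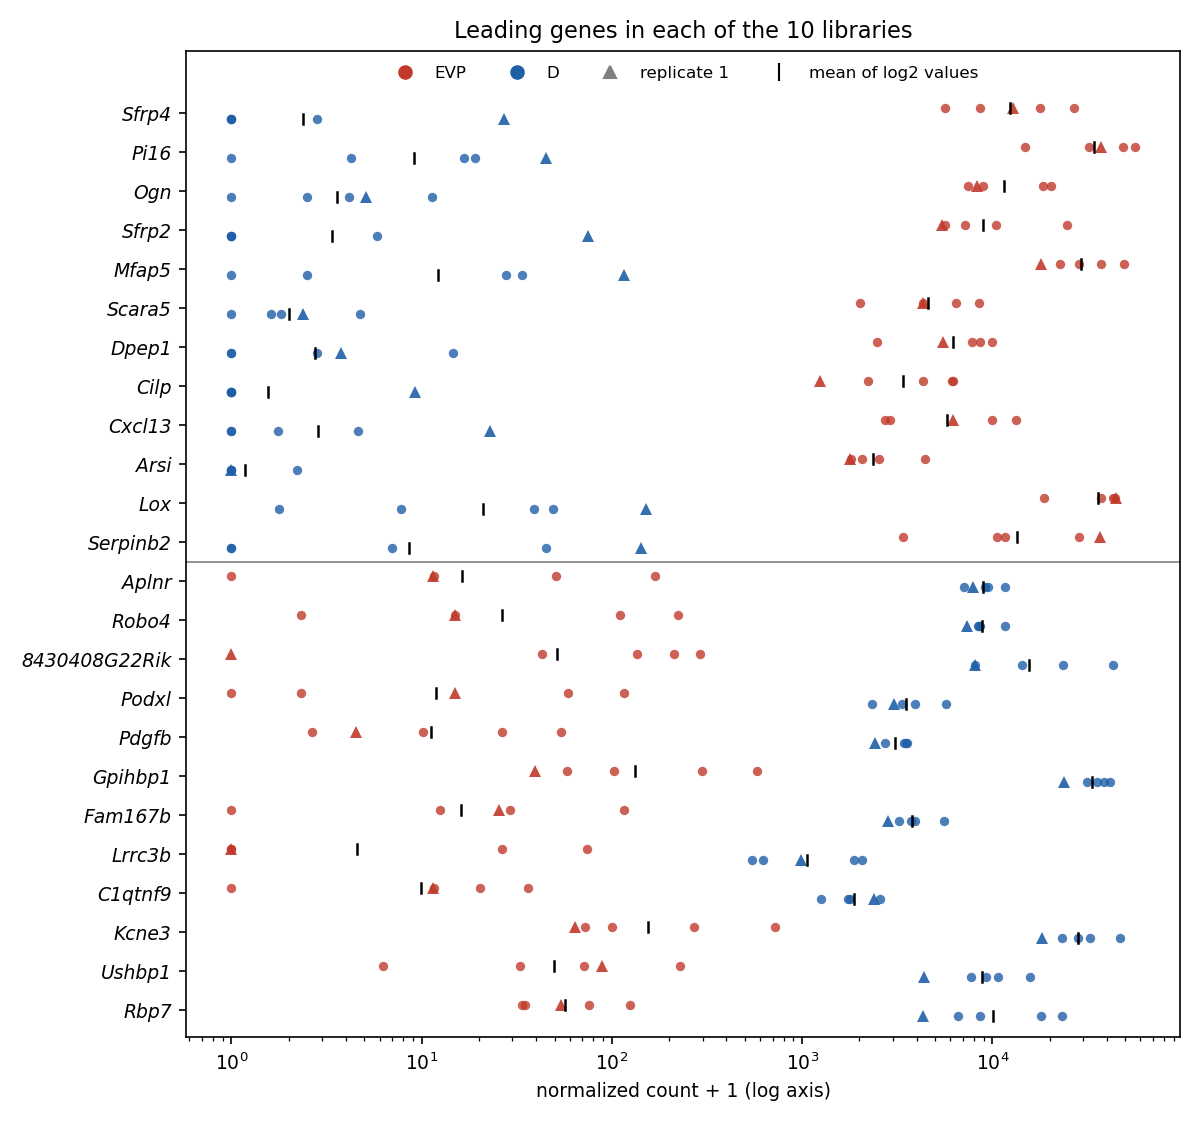
Normalized counts plus 1 (log axis) of the 12 leading genes of each direction in every EVP and D library, each point a library. Replicate 1 is drawn as a triangle and the mean of the log values as a line, and in none of the 24 genes do the EVP and D points overlap.

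RefSeq promoters, from 250 bases before to 50 bases after the start of each gene in GRCm38.p6, were matched for 14 of these 24 genes. The first 3 of each direction with an entry by size of the difference are shown as examples of the start regions of leading genes, and leading genes without an entry, such as Sfrp4 and Aplnr, are not shown. Capitals mark 5 short motifs on either strand. For factors of the ETS family these were CCGGAAG and, as a second and looser form from the same family, AGGAAG. For AP-1 the letters searched were TGANTCA. The box bound by factors such as Sp1 was searched as GGGCGG. The TATA box near the start of some genes was searched as TATAAA. Pi16, Ogn and Sfrp2 were higher in EVP and Robo4, Fam167b and Lrrc3b in D.
Pi16 (chr17:29318632-29318931, plus strand): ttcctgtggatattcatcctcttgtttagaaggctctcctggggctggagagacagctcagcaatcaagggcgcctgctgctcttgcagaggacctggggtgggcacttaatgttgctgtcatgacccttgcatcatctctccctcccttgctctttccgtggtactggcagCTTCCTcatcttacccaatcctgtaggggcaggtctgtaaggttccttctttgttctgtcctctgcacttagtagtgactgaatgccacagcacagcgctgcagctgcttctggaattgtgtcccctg
Ogn (chr13:49607765-49608064, plus strand): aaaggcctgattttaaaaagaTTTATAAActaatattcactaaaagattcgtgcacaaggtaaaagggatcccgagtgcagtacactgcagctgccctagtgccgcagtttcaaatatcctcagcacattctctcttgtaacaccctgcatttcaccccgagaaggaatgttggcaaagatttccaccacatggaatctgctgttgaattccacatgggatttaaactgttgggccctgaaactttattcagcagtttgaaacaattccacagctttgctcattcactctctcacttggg
Sfrp2 (chr3:83766071-83766370, plus strand): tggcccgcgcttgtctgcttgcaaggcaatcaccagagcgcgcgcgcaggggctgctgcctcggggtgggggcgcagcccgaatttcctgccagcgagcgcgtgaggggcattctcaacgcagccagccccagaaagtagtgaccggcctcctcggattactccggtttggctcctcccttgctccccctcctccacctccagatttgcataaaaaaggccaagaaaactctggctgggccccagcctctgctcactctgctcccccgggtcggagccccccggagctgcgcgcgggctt
Robo4 (chr9:37401722-37402021, plus strand): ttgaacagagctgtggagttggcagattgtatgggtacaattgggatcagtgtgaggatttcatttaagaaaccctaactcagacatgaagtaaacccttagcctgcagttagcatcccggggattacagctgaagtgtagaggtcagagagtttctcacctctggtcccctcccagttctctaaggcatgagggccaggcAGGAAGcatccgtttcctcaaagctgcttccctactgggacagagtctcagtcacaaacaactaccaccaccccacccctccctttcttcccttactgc
Fam167b (chr4:129578531-129578830, minus strand): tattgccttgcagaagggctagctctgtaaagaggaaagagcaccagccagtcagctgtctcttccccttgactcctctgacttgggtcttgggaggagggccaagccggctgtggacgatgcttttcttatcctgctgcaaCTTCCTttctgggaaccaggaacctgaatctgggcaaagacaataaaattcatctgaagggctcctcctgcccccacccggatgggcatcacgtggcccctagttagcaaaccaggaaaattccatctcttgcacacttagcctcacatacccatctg
Lrrc3b (chr14:15438938-15439237, minus strand): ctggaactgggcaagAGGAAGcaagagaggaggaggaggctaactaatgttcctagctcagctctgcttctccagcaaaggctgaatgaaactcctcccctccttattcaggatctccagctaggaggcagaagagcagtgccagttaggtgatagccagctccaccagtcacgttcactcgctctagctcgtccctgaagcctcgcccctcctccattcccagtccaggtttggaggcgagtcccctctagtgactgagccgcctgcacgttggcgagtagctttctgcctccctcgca
Pi16, Robo4, Fam167b and Lrrc3b each held 1 AGGAAG, Ogn held 2 overlapping TATAAA and Sfrp2 held none of the 5 motifs. The 2 in Ogn were 1 stretch read on opposite strands, close to the upstream end of the window rather than to the start. AGGAAG occurred in 35.4% of all 32851 promoters, in 31.8% of those of called genes higher in EVP and in 36.2% of those higher in D. The longer CCGGAAG, which does not contain AGGAAG, occurred in 8.86% of all promoters, 8.45% of those higher in EVP, 13% of those higher in D and 14.5% of those of tested genes that were not called. GGGCGG occurred in 56.4% of promoters higher in EVP, 64.6% higher in D and 50.5% not called, against 35.7% of all. TATAAA occurred in 9.01%, 7.32% and 11.2%, against 13.6% of all, and TGANTCA in 7.86%, 6.09% and 6.45%, against 7.81%. The observed over expected CpG ratio had a median of 0.60 in promoters higher in EVP, 0.706 in those higher in D and 0.666 in those not called. These shares describe letters in a window and do not identify a bound factor.

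Gene lists for functions beyond the markers that the study names were then counted, leaving those named genes out. The share called in each direction can be read against 11.6% and 7.46% of all tested genes, and the median log2 difference against 0.46. Among protein coding genes alone these were 14.7%, 9.99% and 0.32, so lists near those shares do not stand out.

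**Figure D3:**
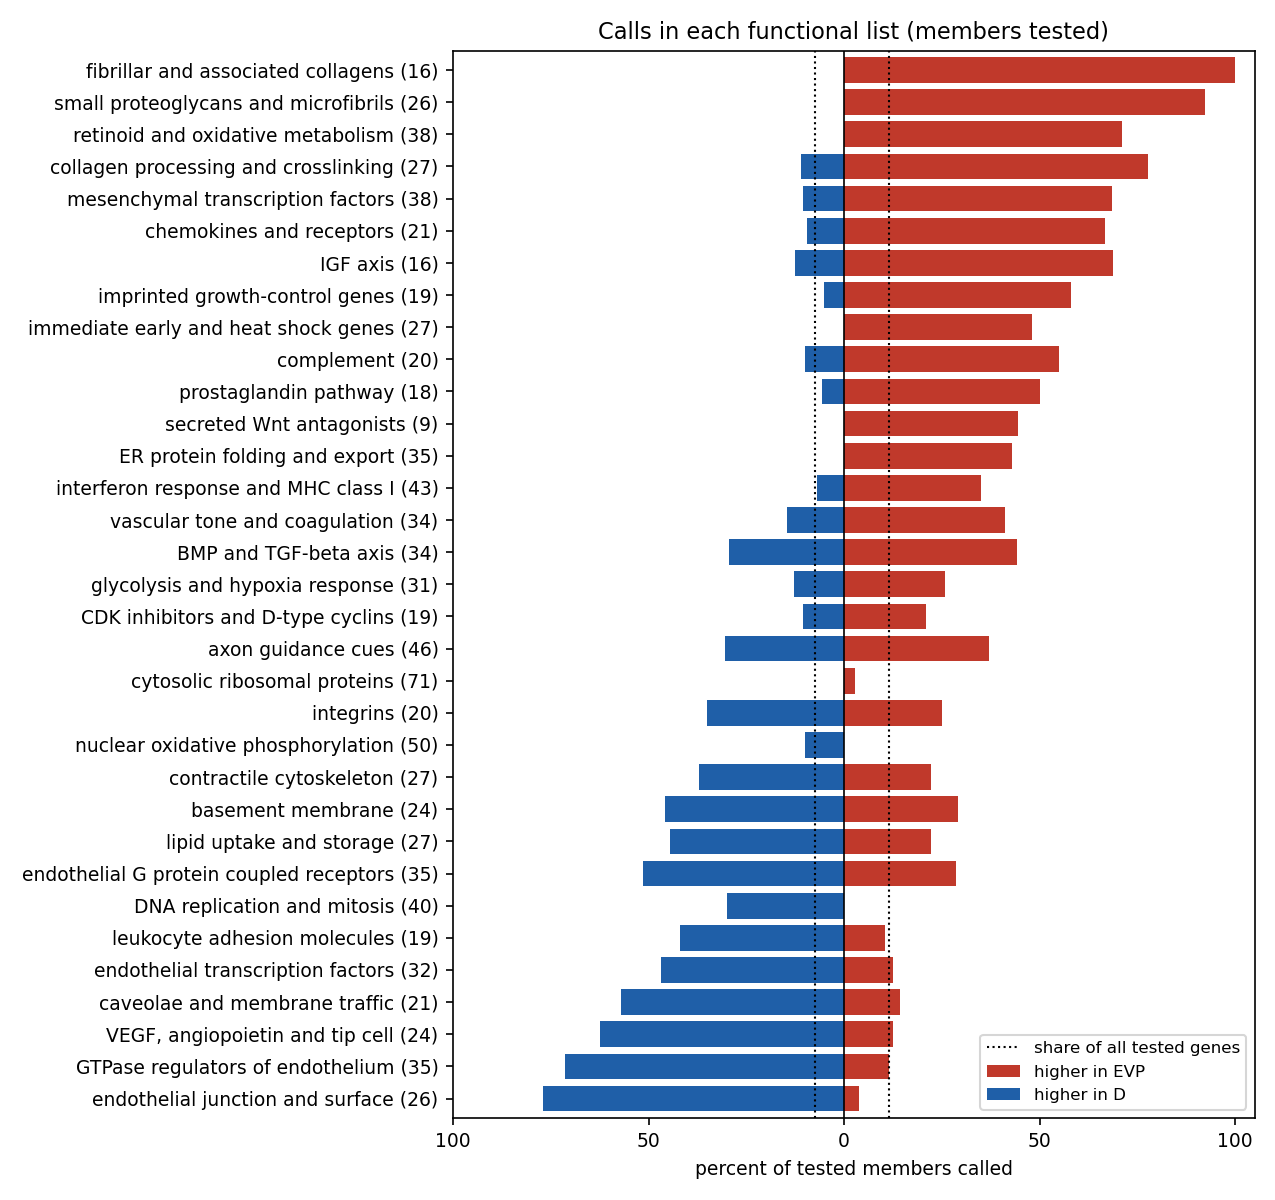
Share of the tested members of each functional list that were called higher in EVP or higher in D (percent of tested members, bars), with the number of tested members in parentheses after each list name and dotted lines at the shares of all tested genes. The lists of fibrillar collagens, small proteoglycans and collagen processing reach the highest shares for EVP and the endothelial junction and GTPase regulator lists for D.

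The matrix divided by type. All 16 fibrillar and associated collagen genes were higher in EVP, with a median log2 difference of 6.47, and all 16 were called again without replicate 1. Col5a2, a chain of type V collagen, held 27306, 40281, 36465, 28888 and 38294 normalized counts in EVP and 324, 297, 281, 355 and 281 in D, 111-fold higher in EVP (log2 difference 6.78 ± 0.27, adjusted p = 5.3e-11). Col1a1 was 326-fold and Col6a1 65.1-fold higher. Of 26 genes for small proteoglycans and microfibrils, 24 were higher in EVP and 0 in D (median 6.22), including biglycan (Bgn, 31589 ± 10210.1 against 1063 ± 319, mean ± SD, n = 5) and Fbln2 (23.4-fold).

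Basement membrane genes split instead. Of 24 tested, 7 were higher in EVP and 11 in D, with a median of -0.43. The D genes included the chains of the common type IV collagen. Col4a1 held 10108, 10019, 5144, 21118 and 15776 in EVP and 48502, 53033, 45873, 85389 and 63161 in D, 4.76-fold higher in D (log2 difference -2.37 ± 0.33, adjusted p = 3.2e-05), and Col4a2 was 5.19-fold higher. Lamb1, a laminin chain of the vessel wall, was 2.7-fold higher in D. The EVP genes included the laminin chain Lama2, with 829 to 2802 against 0 to 149.6, and Lamb2 (2.5-fold). Nid1, which links laminins to type IV collagen, had 13322 ± 4432 in EVP and 11929 ± 3488 in D (mean ± SD, adjusted p = 0.76). The fibrillar collagens and the common type IV chains thus differed in opposite directions, while EVP libraries still held at least 5144 normalized counts of Col4a1.

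Collagen processing genes were mostly higher in EVP, at 21 of 27, with 3 higher in D (median 2.28). Loxl1, a crosslinking oxidase, had 14143 to 27011 normalized counts in EVP and 10.5 to 79.6 in D, and Pcolce, which enhances procollagen cleavage, was 16.6-fold higher in EVP. The 3 genes higher in D all modify collagen chains. Plod1, a lysyl hydroxylase, was 1.94-fold higher in D (adjusted p = 0.0057), P3h2, a prolyl hydroxylase, 7.51-fold, and Colgalt2, a collagen galactosyltransferase, 7.41-fold. Of 35 genes for protein folding and export in the endoplasmic reticulum, 15 were higher in EVP and 0 in D, with small differences (median 0.44). With edgeR 9 were higher in EVP, and 3 were when a log2 difference of at least 1 was required. P4hb had 36948 ± 6281 in EVP and 20231 ± 3537 in D, 1.83-fold, Kdelr2 was 1.73-fold and Hsp90b1 1.63-fold higher. The chaperone Hspa5 had 54279 ± 4535 and 45441 ± 7633 and was not called (adjusted p = 0.35).

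Secreted regulators of growth factors were numerous among the genes higher in EVP. Of 9 tested Wnt antagonists, 4 were higher in EVP and 0 in D (median 3.06). Besides Sfrp2 and Sfrp4, Dkk3 was 5.09-fold higher, with 1022 to 1752 against 139 to 378. The insulin-like growth factor (IGF) list had 11 of 16 genes higher in EVP and 2 in D (median 4.01). Igfbp6, a binding protein that prefers IGF2, held 7510.2, 16446, 11151, 25658 and 7874 normalized counts in EVP and 34.3, 16.3, 0.782, 6.76 and 16.3 in D (log2 difference 10.15 ± 0.61, adjusted p = 2.7e-09). The secreted proteases Htra3 and Htra1 were also higher in EVP, by 10.28 and 4.38 on the log2 scale. The 2 genes higher in D were binding proteins as well. Igfbp3 held 2633, 2237, 2828, 3545 and 6173 in EVP and 89249, 115936, 119183, 212285 and 99115 in D, 36.5-fold higher in D (log2 difference -5.22 ± 0.68, adjusted p = 1.7e-05), and Igfbp7 was 5.29-fold higher. Members of the same family of binding proteins were thus higher in different populations.

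In the BMP and TGF-beta list, 15 of 34 genes were higher in EVP and 10 in D (median 0.60). The EVP genes included the secreted antagonist Chrdl1, with 1667 to 5161 normalized counts against 0 to 37.1, the activin subunit Inhba, with 879 to 8455 against 4.23 to 82.4, and Fstl1 (12.2-fold). The D genes included the co-receptor endoglin (Eng, 16217 to 32849 against 907 to 2206, 14.4-fold), the pseudoreceptor Bambi (11.2-fold) and Id1, a target gene of BMP signaling. Id1 held 151, 165, 115, 245 and 204 in EVP and 3303, 5532, 4859.6, 6373 and 3424 in D, 26.7-fold higher in D (log2 difference -4.73 ± 0.46, adjusted p = 7.7e-07). Of the members named, the secreted ones were higher in EVP and the receptors and the target gene in D. Genes that the study names are not in this count. Among those, it reports the receptors Tgfbr2 and Tgfbr3 as higher in EVP, so the division does not extend to all receptors.

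Of 21 chemokine and chemokine receptor genes, 14 were higher in EVP and 2 in D (median 2.22), 1 in D without replicate 1 of each population. The monocyte attractants Ccl2 and Ccl7 were 15.6-fold and 25.7-fold higher in EVP, with lowest EVP values of 14567 and 11961 normalized counts. Cxcl12 held 16372, 35578, 8904, 32054 and 9788 in EVP and 8900.5, 6344, 3063, 6248 and 4720.0 in D, so that the lowest EVP library was just above the highest D library (log2 difference 1.66 ± 0.47, adjusted p = 0.017, and up to 0.054 without D 3, EVP 2 or EVP 4). Its receptor Cxcr4 was higher in D, with 255 to 675 against 6.53 to 28.1 (22.9-fold). In the complement list, 11 of 20 genes were higher in EVP and 2 in D (median 3.96), 1 in D without replicate 1. C3 had 16759 to 66568 in EVP and 9.8 to 157 in D, and the C1 inhibitor Serping1 was 101-fold higher in EVP. C4b was also higher (9.46 on the log2 scale), although its reads can be shared with the near-identical C4a. Cd59a, a membrane-bound inhibitor of complement lysis, was 5.14-fold higher in D, and Clu 3.22-fold, with an adjusted p of 0.017 that became 0.063 without replicate 1 and also exceeded 0.05 without D 5.

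Of the genes listed for retinoid and oxidative metabolism, 27 of 38 were higher in EVP and 0 in D (median 3.47). The list does not hold the retinol binding protein Rbp7, which was among the leading genes of D. Sod3, the extracellular superoxide dismutase, held 15821, 19306, 17068, 19344 and 12867 normalized counts in EVP and 82.4, 0.816, 21.9, 34.6 and 11.5 in D (log2 difference 9.92 ± 0.68, adjusted p = 1.2e-08). Gpx3, the secreted glutathione peroxidase, had 35489.7 to 98984 and 937 to 1373, 51.9-fold higher in EVP. By name alone, 15 of 75 cytochrome P450 genes were higher in EVP and 0 in D, and Cyp1b1, an oxidase of hormones and xenobiotics, had 1094 to 3405 in EVP and 0 to 20.6 in D. Of 22 glutathione S-transferases, 12 were higher in EVP and 2 in D (1 without replicate 1), where Gsto1 was 2.51-fold higher. Gstm1 and Gstm2 are close copies whose reads may be divided uncertainly.

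In the prostaglandin list, 9 of 18 genes were higher in EVP and 1 in D (median 2.37). The enzymes named here were higher in EVP. Ptgs2 (COX-2) held 12661, 2238, 6353, 4694 and 5389 in EVP and 284, 98.8, 68, 101 and 68.3 in D, 50.5-fold higher in EVP (log2 difference 5.66 ± 0.41, adjusted p = 2.2e-08). The prostacyclin synthase Ptgis had 1542 to 2851 against 0 to 75.5, and the phospholipase Pla2g4a was 23.3-fold higher. The gene higher in D was a receptor, the thromboxane receptor Tbxa2r, with 501 to 1426 against 34.4 to 52.7.

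Lipid handling was weighted to D, with 12 of 27 genes higher there and 6 in EVP (median -0.66). The fatty acid transporter Cd36 held 414, 290.0, 735, 1001 and 856 in EVP and 13847, 29400.4, 31873, 36100.1 and 28219 in D, 42.3-fold higher in D (log2 difference -5.47 ± 0.51, adjusted p = 4.2e-07), and the fatty acid binding protein Fabp4 was 37.1-fold higher. Lipoprotein lipase itself (Lpl) was 17.7-fold higher in EVP, with 3115 to 13099 against 106 to 657, while Gpihbp1, which holds this enzyme on the endothelium, was among the leading genes of D. The lipoprotein receptor family member Lrp1 was 43.4-fold higher in EVP, and Angptl4, an inhibitor of the lipase, had 10090.3 ± 2315 and 8194 ± 2329 (adjusted p = 0.42).

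Most genes of glycolysis and oxidative phosphorylation were not called. Of 31 glycolysis and hypoxia genes, 8 were higher in EVP and 4 in D (median 0.19), and 5 were higher in EVP without D 4, D 5, EVP 1 or replicate 1 of each population. The hexokinases went apart, Hk2 being 9.41-fold higher in EVP, with 624 to 2149 against 72.7 to 385, and Hk1 2.07-fold higher in D. Epas1, the hypoxia-inducible factor HIF-2 alpha, held 372, 498, 253, 695 and 485 in EVP and 4926, 7163, 5547, 8478 and 5700.3 in D (13.8-fold, adjusted p = 5.2e-09). Of 50 nuclear genes of oxidative phosphorylation, 5 were higher in D and 0 in EVP (median -0.23), and 3 were higher in D without D 1, D 3, D 5, EVP 1, EVP 4 or replicate 1 of each population. The share higher in D, 10%, lay near the 9.99% of all protein coding genes. Ndufa8 was 2.56-fold and Cox5a 1.49-fold higher in D. Of 71 cytosolic ribosomal protein genes, 2 were higher in EVP, among them Rpl21 (1.53-fold), which has many pseudogene copies, and 0 in D (median 0.18). The 2 became 1 without replicate 1, 7 with array weights and 0 when a log2 difference of at least 1 was required.

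Transcription factors of mesenchymal and endothelial development were also called. Of 38 mesenchymal factors, 26 were higher in EVP and 4 in D (median 3.76). Osr1 held 2770.2, 5465, 3852, 3262 and 1941 normalized counts in EVP and 12.4, 0, 0, 5.26 and 1.81 in D (log2 difference 10.10 ± 0.60, adjusted p = 2.6e-09). Prrx1 had 4499 to 7273 against 0 to 78.3, and Ebf1 was 5.36-fold higher in EVP. The T-box factors Tbx15 and Tbx18 were among 4 of 13 T-box genes higher in EVP, with 0 in D. Of the 4 mesenchymal factors higher in D, Tcf4 was 5.96-fold, Meox1 3.76-fold and Zeb1 2.51-fold higher. Zeb1, known for driving loss of epithelial traits, had 2813 to 3459 in D and 1124 to 1402 in EVP.

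Of 32 endothelial factors, 15 were higher in D and 4 in EVP (median -1.30). Elk3, an ETS family repressor, was 6.32-fold higher in D, with 2676 to 5174 against 495 to 674, and Mef2c 4.66-fold. Klf4, a flow-responsive factor that fibroblasts also express, was 8.41-fold higher in EVP.

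Hox genes, which record the position of a cell along the body axes, differed by cluster. Apart from Hoxc9, Hoxc10, Hoxa10, Hoxa7, Hoxb7 and Hoxd8, the Hox genes named here were chosen after their values were seen. Of 8 tested Hoxc genes on chromosome 15, 7 were higher in EVP and 0 in D, with a median log2 difference of 5.33, and the same number was called without replicate 1. Hoxc9 held 179, 204, 324, 261 and 202 normalized counts in EVP and 17.8, 0, 0.782, 3.76 and 4.23 in D (log2 difference 5.90 ± 0.73, adjusted p = 1.1e-05). Hoxc6 had 67.9 to 107 against 0 to 3.0 and Hoxc10 137 to 270.0 against 2.25 to 19.5. No Hoxc gene had a negative difference.

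The Hoxd and Hoxb clusters went the other way. All 4 tested Hoxd genes on chromosome 2 were higher in D (median -3.38), 3 of them also without replicate 1. Hoxd9 held 0, 1.31, 5.73, 14.4 and 0.691 in EVP and 24.7, 289, 184, 149 and 26 in D (log2 difference -4.74, adjusted p = 0.0085), and Hoxd8 had 253 to 784 in D and 41.5 to 184 in EVP, with an adjusted p of 0.011 that became 0.062 without replicate 1. Of 9 tested Hoxb genes on chromosome 11, 4 were higher in D and 0 in EVP. Hoxb7 held 94.8, 116, 164, 88.7 and 58.8 in EVP and 822, 858, 538, 800.1 and 703 in D, 7.13-fold higher in D (adjusted p = 0.00013). The Hoxa cluster on chromosome 6 was mixed, with Hoxa10 and Hoxa11 higher in EVP and Hoxa7 in D among 10 tested. Exons of Hoxa11, Hoxa7 and Hoxd4 overlap those of other transcripts over 35.0%, 20.4% and 52.3% of their length, and their reads may not all be their own.

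**Figure D4:**
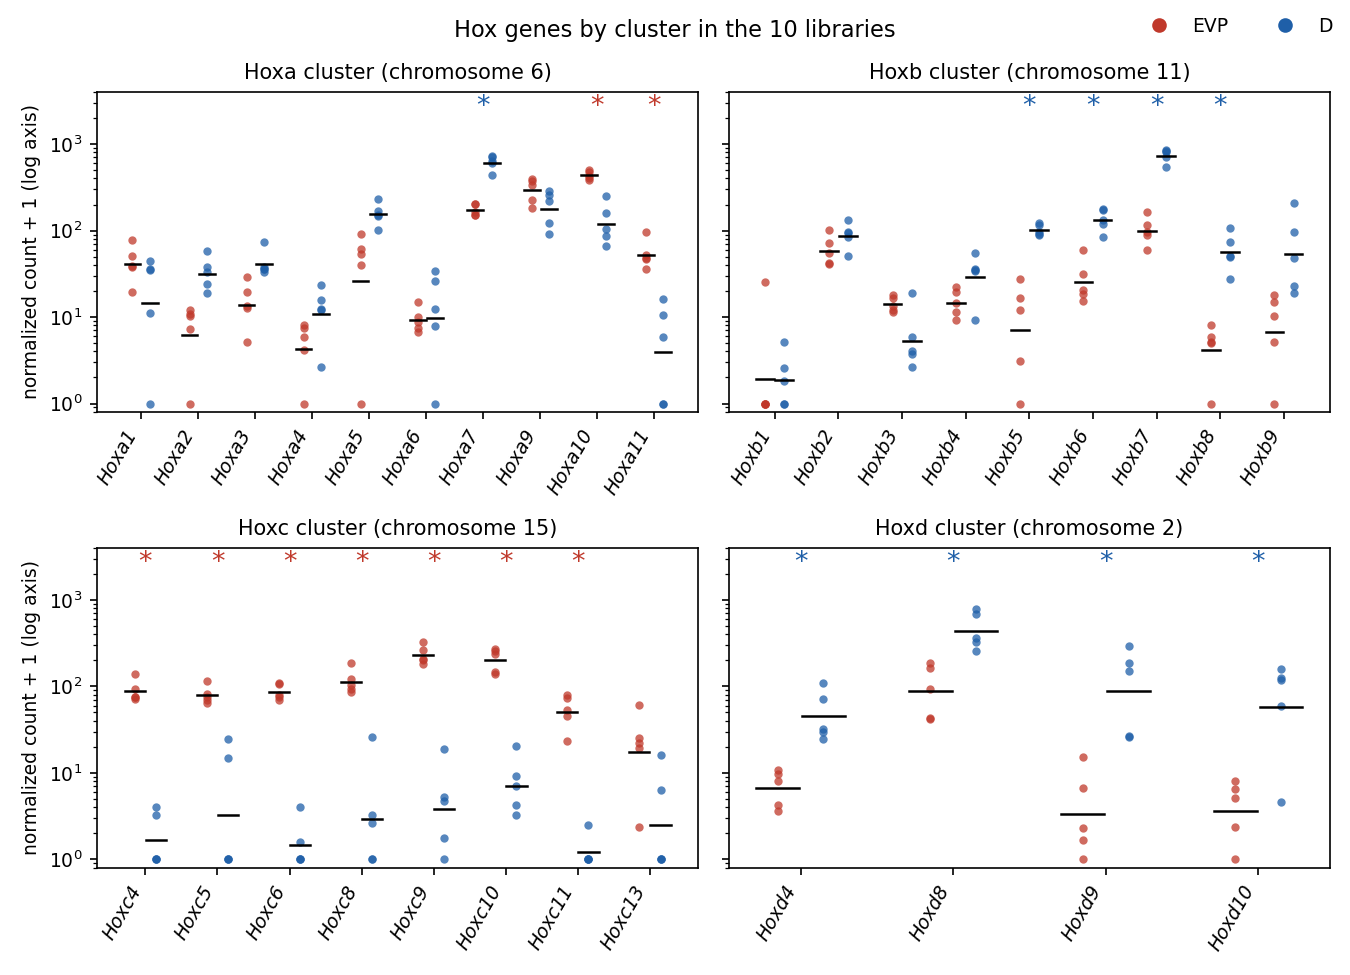
Normalized counts plus 1 (log axis) of each tested Hox gene in the 5 EVP and 5 D libraries, by cluster, with each point a library, a line at the mean of the log values and a star over called genes in the color of the higher population. EVP points lie above D points for 7 of 8 genes of the Hoxc cluster, where log2 differences range from 2.78 to 5.90, and below them for 3 of 4 genes of the Hoxd cluster, where they range from -4.74 to -2.31.

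The list of endothelial junction and surface genes had the highest share of members called higher in D among the functional lists. Of 26 junction and surface genes, 20 were higher in D and 1 in EVP (median -4.75). Plvap, which forms the diaphragms of fenestrae, held 197, 216, 279.8, 724 and 1628 normalized counts in EVP and 43913, 58729, 49826, 78687 and 73938 in D, 100.2-fold higher in D (log2 difference -7.12 ± 0.68, adjusted p = 5.6e-07). The surface receptor Cd93 and the secreted Egfl7 were 92.7-fold and 90.4-fold higher. The exception was Amotl2, an angiomotin family scaffold, which was 3.18-fold higher in EVP.

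In the list of VEGF, angiopoietin and tip cell genes, 15 of 24 were higher in D and 3 in EVP (median -3.34). Left out of this count are genes that the study names. Among such genes it reports the ligands Vegfa and Vegfd as higher in EVP and Kdr and Dll4 as higher in D. The angiopoietins divided. Angpt2, the autocrine ligand of sprouting endothelium, held 169, 273, 123, 823 and 1433 in EVP and 43002, 32992, 54876, 52774 and 38673 in D, 78.8-fold higher in D (log2 difference -6.89 ± 0.61, adjusted p = 2.7e-07). Angpt1, the ligand supplied by perivascular cells, had 147 to 448 in EVP and 0 to 23.3 in D, and Angpt4 92 to 325 against 0 to 20.6. The third gene higher in EVP was Angptl2. Tek, the common receptor of the angiopoietins, was the one pan-endothelial marker that was not called, as given above. The VEGF receptor Flt1 was 58.1-fold higher in D.

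Lysophospholipid receptors showed the same kind of division. S1pr1, the main sphingosine 1-phosphate receptor of endothelium, held 151, 37.9, 236, 233 and 388 in EVP and 14969, 20069, 20683, 20049 and 18372 in D (log2 difference -6.81 ± 0.73, adjusted p = 2.1e-06). S1pr3 held 4469.6, 5192, 4620.5, 3823 and 5029 in EVP and 361, 85.7, 216, 98.4 and 314 in D (4.64 ± 0.56, adjusted p = 7.5e-06). The lysophosphatidic acid receptor Lpar1 had 2067 to 4956 against 0 to 30.2. Over the 35 G protein coupled receptors listed for endothelium, 18 were higher in D and 10 in EVP (median -1.85). The endothelin receptor Ednrb and the adhesion receptor Adgrf5 were 64.8-fold and 57.9-fold higher in D, and the adenosine receptor Adora2b had 1243 to 2233 in EVP against 0 to 71.4.

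**Figure D5:**
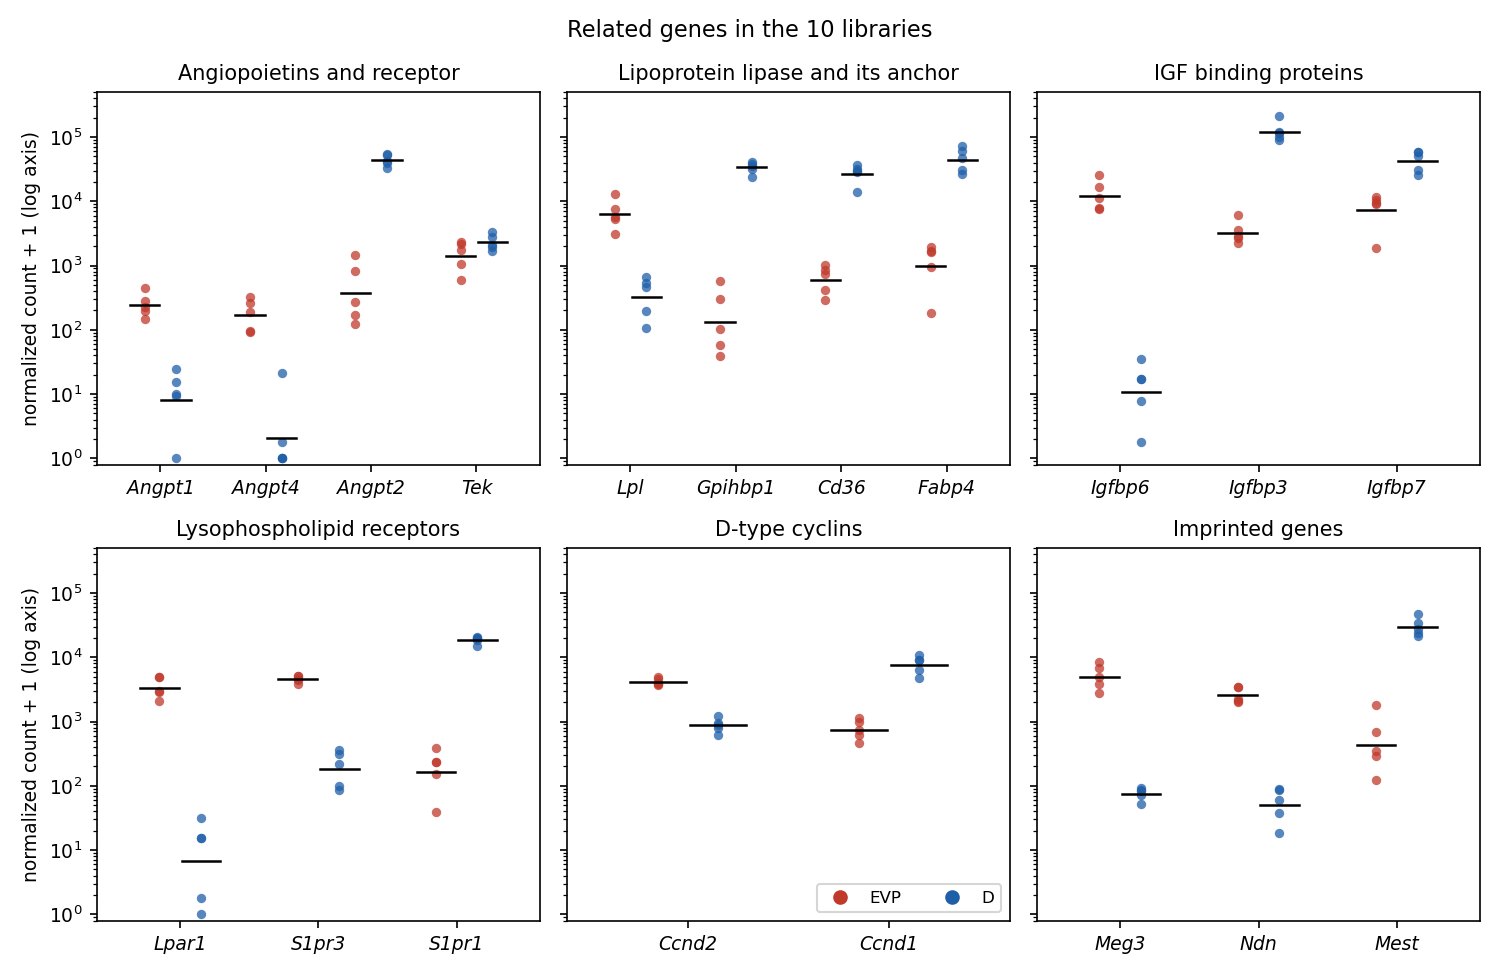
Normalized counts plus 1 (log axis) of 6 sets of related genes, each point one of the 5 EVP or 5 D libraries and each line the mean of the log values. In every set at least 1 gene lies higher in EVP and at least 1 higher in D. Apart from Tek, the genes shown were picked among called genes of both directions that do not overlap between EVP and D. The split by direction and the lack of overlap therefore follow from that choice.

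Regulators of small GTPases relay such receptors to the cytoskeleton and the junctions. Of 35 tested, 25 were higher in D and 4 in EVP (median -2.17). The Ras activator Rasgrp3 was 14.3-fold higher in D. Among 60 genes named Arhgap or Arhgef, 18 were higher in EVP and 15 in D, so the 35 genes, listed for their use in endothelium, do not stand for these families. In the caveola and membrane traffic list, 12 of 21 were higher in D and 3 in EVP (median -0.83). Cav1 held 5404, 6284, 6346, 5318 and 7255 in EVP and 30596, 22252, 17545, 28120.4 and 21174 in D, 3.91-fold higher in D (adjusted p = 0.00016), and the neuronal-type dynamin Dnm1 was higher in EVP, with 395 to 987 against 0 to 15.1. By name, 10 of 19 tetraspanins were higher in D and 3 in EVP. Tspan12, a co-receptor of Norrin signaling, had 5573 to 9519 in D and 689.7 to 1157 in EVP, Tspan7 was 17.5-fold higher in D, and Tspan11 was on the EVP side with 165 to 961 against 0 to 12.4.

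Guidance cues were shared out, with 17 of 46 genes higher in EVP and 14 in D (median 1.21). Slit3, a secreted ligand of Robo receptors, held 1871, 2779, 2581, 2713 and 1071 in EVP and 17.8, 22.9, 3.13, 14.3 and 1.81 in D (log2 difference 7.77 ± 0.55, adjusted p = 1.7e-08). Robo4, of the Robo family, was among the leading genes of D, and whether Slit3 binds it was not tested. Sema3c, a secreted semaphorin, had 3321 to 10796 in EVP and 0 to 313 in D, whereas the semaphorin receptor Plxnd1 was 25.5-fold and the ephrin Efna1 30.4-fold higher in D. Of 20 integrin genes, 5 were higher in EVP and 7 in D (median 0.59). Itga11, a collagen receptor subunit, had 508 to 1866 in EVP and 0 to 22 in D. Itga6, a laminin receptor subunit, held 183, 218, 178, 198 and 236 in EVP and 3843, 6498, 5637, 6733 and 5980.1 in D, 28.3-fold higher in D (log2 difference -4.80 ± 0.28, adjusted p = 1.9e-09), and Itgb1, common to many integrins, was 2.25-fold higher. A collagen-binding subunit and a laminin-binding subunit were thus higher on the sides where fibrillar collagens and Lamb1, respectively, were higher.

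Of 19 leukocyte adhesion genes, 8 were higher in D and 2 in EVP (median -0.48). Icam2 had 5229 to 8789.5 in D and 23.5 to 153 in EVP, and Mcam and Cd200 were 17.6-fold and 14.4-fold higher in D. The 2 genes higher in EVP were Vcam1 (4.49-fold) and the hyaluronan receptor Cd44 (10.4-fold). Vascular tone and coagulation genes were higher in EVP at 14 of 34 and in D at 5 (median 0.78). The plasminogen system went both ways, since the activator Plat was 4.52-fold higher in EVP and the urokinase receptor Plaur 4.01-fold higher in D. The endothelin converting enzyme Ece1 and the nitric oxide synthase trafficking protein Nostrin were 3.82-fold and 11.5-fold higher in D. All 15 called genes of 46 serpins were higher in EVP, including Serpinf1, with 21797 to 32060.5 against 38.3 to 344.

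Cell cycle genes showed a modest difference, and the number of calls moved with the libraries used. Of 40 DNA replication and mitosis genes, 12 were higher in D and 0 in EVP (median -0.64), but without replicate 1 of each population 3 were, 4 were without D 1, D 2, D 5 or EVP 4 alone, and 6 without EVP 2. With array weights 23 were, and the median without replicate 1 was -0.59. Cdk1 held 2166, 1727, 2403, 675 and 2121 in EVP and 5325, 4496, 3806, 3043 and 4062 in D (2.28-fold, adjusted p = 0.0038), with EVP 4 far below the other EVP libraries. Mcm6 was 1.67-fold higher in D, and Ccnb2 1.53-fold, with an adjusted p of 0.039 that became 0.14 without replicate 1 and exceeded 0.05 when any 1 of D 1 to 5, EVP 1, EVP 2 or EVP 4 was left out. The D-type cyclins, which couple growth factors to the cycle, changed more. Ccnd1 held 748, 617, 455, 1144 and 991 in EVP and 9057, 6328, 4755, 10649 and 8918 in D, 10-fold higher in D (log2 difference -3.34 ± 0.32, adjusted p = 5.8e-07). Ccnd2 held 4596, 3757, 4919.9, 3933 and 3822 in EVP and 877, 961, 1208, 621 and 779.6 in D, 4.73-fold higher in EVP (2.27 ± 0.23, adjusted p = 1.3e-06). The stress gene Gadd45g was 5.62-fold higher in EVP and the CDK inhibitor Cdkn2b 4.43-fold higher in D.

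Imprinted genes that control growth were higher in EVP at 11 of 19, with 1 higher in D (median 1.5). Meg3, a maternally expressed long noncoding RNA, held 3788, 4930.3, 8581, 2793 and 6735 in EVP and 92, 71, 84.4, 51.8 and 82.2 in D, 70.3-fold higher in EVP (log2 difference 6.03 ± 0.38, adjusted p = 4.9e-09). The paternally expressed Ndn was 45.8-fold higher in EVP. Mest, also paternally expressed, held 295, 345, 120.3, 675 and 1787 in EVP and 33694, 21282, 24112, 47847 and 27918 in D, 48.1-fold higher in D (-6.10 ± 0.63), and Grb10 had 6225 ± 1775 and 7474 ± 1363 (adjusted p = 0.44). Some genes named above share exon bases with another gene, so that part of their reads may belong to it. The share was 23.1% for Mest, 23.4% for Ccnd1, 28.4% for P3h2, 20.6% for Tbx18, 20.5% for Lrrc3b, 16.1% for Sfrp2 and 15.7% for Hsp90b1.

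Non-coding classes held a smaller share of calls than protein coding genes, of which 14.7% were higher in EVP and 9.99% in D. Of 1626 long intergenic RNAs, 112 were higher in EVP and 39 in D, and of 2269 processed pseudogenes, 33 and 38. Without replicate 1, calls of long intergenic RNAs went from 112 to 133 in EVP and from 39 to 55 in D. Those of 1696 transcripts of the class to be experimentally checked (TEC) went from 71 to 108 in EVP and from 18 to 37 in D, whereas sense intronic RNAs higher in EVP went from 12 to 11.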

How the data were processed

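RNA from 15 samples, 5 each of EVP, TA and D cells, was sequenced from paired ends after amplification by a modified Smart-Seq2 protocol. Per the labels and the study's methods, the authors used bcl2fastq 2.17, aligned reads to GRCm38 with STAR 2.5.3a, counted them per gene with HTSeq-count and normalized with DESeq2 1.10.1. What the authors deposited is a signal value for each gene and library, the read count scaled by that library's size factor. All of them (100%) were whole multiples of the value of 1 read within 0.01, so whole reads were recovered. Counting by strand is not given in the sources used here, and reads of overlapping or antisense genes may be shared. Tables of the authors' own comparisons hold fold changes and p-values and were not used.

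Log2(normalized count + 1) of the 25549 genes with a mean of 5 or more was fitted in R 4.3.3 with limma 3.58.1 (trend, all 15 libraries, 2-sided), and EVP was compared with D at a Benjamini-Hochberg adjusted p under 0.05. Called genes passed this threshold, a fold divides the mean normalized count of one population by that of the other, and values after ± are SE for log2 differences and SD for means (n = 5). Fold changes on the log2 scale understate differences of low genes. Since counts are not divided by length, a difference in level between genes also reflects their length, and the summed levels and highest means of lists weigh long genes more. Whole reads were tested with edgeR 4.0.16 and DESeq2 1.42.0 as alternatives, beside other pseudocounts (0.5, 8), filters (none, 20), scalings, array weights, a replicate block, a batch term and the omission of each library. The fits were tested on simulated data.

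The gene lists, the comparison and the alternatives were chosen with earlier results of these data known. Genes were named if they set the sort, if they were among the 12 largest differences of each direction, if they had the highest means among called and non-overlapping members of a list or family (up to 3 per direction, and the highest not called), if they led a marker list, or if a limit turned on them. Some genes that this rule picks are not reported here. Genes that the study names were left out of the functional lists.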

Additional observations from a re-analysis of the deposited data

Results flagged for a closer look

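In 24 of the 414 groups of 5 libraries tested (5.80%), 1 library lay far from the other 4, beyond the 0.71 limit of Dixon's test at which chance alone picks out about 1 group in 20. The library D 1 accounted for 8 of them, with normalized counts of 8.24 for Cilp, 196 for Colgalt2, 284 for Ptgs2, 13847 for Cd36, 20.6 for Angpt4, 670.0 for Gbp4, 12.4 for Tspan11 and 192 for Adamts5. The D 1 values of Cd36, Colgalt2, Gbp4 and Adamts5 were the lowest of D and those of Cilp, Ptgs2, Angpt4 and Tspan11 the highest. D 2 stood apart with 0 for Prrx1, 17.1 for Angptl2 and 425 for Cdkn2b, and D 3 with 385 for Hk2, 0.782 for Itgb5 and 2483 for Tspan7. D 4 did so with 1.5 for Hoxc11, and D 5 with 1.21 for Arsi and 3.63 for Hoxd10. Among EVP libraries, EVP 1 stood apart with 1903 for Igfbp7, EVP 2 with 0 for Hoxb8, and EVP 4 with 18760 for Lox and 675 for Cdk1, the mitotic kinase. EVP 5 had the highest values of P4hb (48112), Acta2 (17973) and Tpm4 (31323). For Cilp, Arsi, Angpt4 and Tspan11 the other 4 D libraries held at most 0.782 normalized counts, and Hoxc11 had 0 in the other 4.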

How the results depend on the processing

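Of 207 genes followed through the alternatives, 196 were called, and 179 of these kept their call and direction under every alternative run. The number of called genes, 4859, ranged from 3849 with edgeR on whole reads and 3903 with quantile normalization to 7609 with array weights, which gave 4641 on the EVP side and 2968 on the D side. Quantile normalization gave 1920 genes higher in EVP and 1983 in D, and leaving out 1 library gave 4120 to 4943 in all. DESeq2 called 5546, with an adjusted p missing for 2787 genes, and 4573 of its calls were among the 4859. The fit without TA called 5544, a batch term for replicate 1 gave 5490, a minimum log2 difference of 1 gave 4082 and omitting the filter gave 4229. Log2 differences that changed sign were not called in any setting. That of Hspa5 became -0.0048 with quantile normalization, that of Nid1 ranged from -0.015 to 0.29 when 1 library was left out, and that of Gm10800 from -1.31 to 4.16. Leaving out D 3, EVP 2 or EVP 4 ended the call of Cxcl12, leaving out D 5 that of Clu, and leaving out EVP 5 that of Acta2 among its 8 such settings. Ccnb2 lost its call in 13 settings and Cpa3 in 7. Hoxc5 and Hoxa11 were not called with edgeR or quantile normalization. Kcn genes higher in EVP fell from 14 to 6 and Zfp genes from 35 to 17 with quantile normalization, glycolysis genes higher in EVP from 8 to 5 without D 4, D 5 or EVP 1, and oxidative phosphorylation genes higher in D reached 10 with array weights. The causes were not tested. With the replicate number as a block (replicate block), 5710 genes were called, 3600 higher in EVP and 2110 in D. Deviations of EVP and D libraries with the same number correlated at 0.689, 0.0595, 0.242, 0.438 and 0.459 for numbers 1 to 5, the highest of each EVP library with any D library except for number 3 (0.274 with another number). The labels do not say that equal numbers belong together, and number 2 was only at 0.0595, so the reported fit did not take the numbers as pairs. What libraries of the same number share is therefore not accounted for in that fit. Dct was called higher in EVP with the replicate block, with array weights and without D 3 (lowest adjusted p = 0.032 in limma). Depth limits genes under 1.81 to 10.5 normalized counts.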

Other observations

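Stress and interferon genes, cytoskeletal genes and several protein families were counted in the same way. Of 27 immediate early and heat shock genes, 13 were higher in EVP and 0 in D (median log2 difference 0.79), against 11.6% and 7.46% of all tested genes, and 12 were higher in EVP without replicate 1 of each population. Fos held 22106, 27310.0, 13741, 47873 and 13041 normalized counts in EVP 1 to 5 and 3856, 3274, 2100.3, 4786 and 2399 in D 1 to 5, 7.56-fold higher in EVP (log2 difference 2.81 ± 0.35 SE, adjusted p = 1e-05). The EVP 4 library was the highest of EVP, and the populations did not overlap. Jun and Junb were 3.24-fold and 3.26-fold higher. These genes are known to respond to enzymatic dissociation and to sorting, whose part was not tested. Of 43 interferon response and MHC class I genes, 15 were higher in EVP and 3 in D (median 0.38), and 1 was higher in D without D 4, EVP 1 or EVP 3. The antiviral membrane protein Ifitm3 and the class Ib molecule H2-T23 were 2.38-fold and 4.21-fold higher in EVP, and the guanylate binding protein Gbp4 had 670.0 to 3295 in D and 272 to 603 in EVP. Of 27 contractile genes, 6 were higher in EVP and 10 in D. Acta2, smooth muscle actin, held 4456, 2652, 4130.4, 3835 and 17973 in EVP and 951, 625, 649.6, 2039.6 and 1572 in D, with an adjusted p of 0.031 that became 0.08 without replicate 1, and reached 0.09 when EVP 5, its highest library, was left out. Its adjusted p also exceeded 0.05 without EVP 1, D 1, D 2 or D 3. The LIM protein Csrp2 was 3.66-fold higher in EVP and the tropomyosin Tpm4 2.22-fold higher in D.

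Proteases of the ADAM and ADAMTS families were higher in EVP at 18 of 52 and in D at 7. Adamts2, which cleaves the procollagen amino end, had 7592 to 19088 normalized counts in EVP and 23.7 to 255 in D, and Adamts5, an aggrecanase, was 19.5-fold higher in EVP. The sheddase Adam10 was 3.31-fold higher in D. Of 54 protocadherins, 6 were higher in EVP and 5 in D, near the shares of all tested genes. Pcdh18 had 372 to 1099 in EVP and 0 to 106 in D, and Pcdh17 held 649.6, 11.8, 0, 39.2 and 70.5 in EVP and 3027, 3593, 3549, 4999.5 and 3875 in D, so that EVP 1 was well above the other EVP libraries. Ptprb, the phosphatase that acts on Tek and VE-cadherin, was 58.4-fold higher in D, and Pde4b, a cyclic AMP phosphodiesterase, 14.8-fold. Of 71 potassium channel genes, 14 were higher in EVP (9 without EVP 4, 7 with edgeR), where Kcne4 was 16.1-fold higher, and 6 in D, among them Kcne3. Of 59 Rab genes, 13 were higher in EVP and 4 in D, and Rab32 was 10-fold higher in EVP. Of 14 S100 genes, 6 were higher in EVP and 0 in D. Of 48 keratins, 10 were higher in EVP and 1 in D (0 without replicate 1), beside the higher keratinocyte markers of EVP, and their part was not tested. The 348 solute carriers, with 48 higher in EVP and 32 in D, and the 383 zinc finger genes, with 35 and 17, lay near the shares of all genes. Of 907 olfactory receptor genes, 2 were higher in EVP and 0 in D, and 5 were higher in EVP without D 1 and 1 without EVP 1. No called gene was found among 7 mitochondrially encoded transcripts, and 1 of 24 small nucleolar RNAs was higher in EVP (2 without replicate 1).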
